A study of Homo sapiens with 32 samples.

Results

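CCL20 and 9 further genes known to respond to the transcription factor NF-kappaB were followed across 4 human endometrial cancer cell lines, 2 drugs and their combination. The 10 genes were CCL20, CXCL1, CXCL2, CXCL3, TNFAIP3, NFKBIA, BIRC3, RELB, ICAM1 and NFKB2, out of 35238 genes in the deposited expression table. The set was built around a readout of these data: CCL20 was chosen because it was higher with paclitaxel than with vehicle in the SNGM line, and the other members are textbook NF-kappaB targets taken to ask whether they moved with it. The paclitaxel and vehicle libraries of SNGM therefore give a description with no test, and the tests below use the other lines, the other drug and the combination. Comparisons with the SNGM vehicle libraries, also within means over lines and tests between lines, share those libraries with the choice of CCL20.

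NF-kappaB is a family of dimeric transcription factors held inactive in the cytoplasm by inhibitor proteins of the IkB family. Signals from receptors for cytokines such as TNF and interleukin 1, or from danger sensors, activate IkB kinases, the inhibitor is degraded, and the freed dimer enters the nucleus and switches on its targets. A slower non-canonical branch processes the NFKB2 product p100 to p52, which pairs with RELB. In epithelial cells the targets include chemokines that recruit leukocytes, inhibitors that shut the pathway off again, and survival genes.

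The data were RNA sequencing libraries of cells treated for 24 h with vehicle (0.1% DMSO), paclitaxel, SM08502 or paclitaxel and SM08502 together, with 2 libraries in each of 16 groups. Ishikawa is labelled CTNNB1 wild type, and Ishikawa-S33Y, SNGM and HEC265 are labelled CTNNB1 mutated (CTNNB1 encodes beta-catenin). Paclitaxel blocks mitosis by locking microtubules in place, and SM08502 (cirtuvivint) inhibits the CDC-like kinases that phosphorylate splicing factors. Each line received the dose that lowers its own viability to the 50% point, so doses differed: 11 nM paclitaxel and 80 nM SM08502 in Ishikawa, 6 and 85 nM in Ishikawa-S33Y, 11.7 and 350.7 nM in SNGM, and 5.6 and 149 nM in HEC265. A difference between lines cannot be told apart from a difference in dose, nor, for Ishikawa, from its RNA input of 350 ng against 500 ng elsewhere. Cells were plated in duplicate, and nothing further says how separate the duplicates were, so the p-values measure only the spread between these libraries. A lower level can be less RNA per cell or fewer cells that express the gene, which bulk libraries cannot tell apart.

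Values are reads scaled to a common library total (CPM), back-computed from the deposited log10(CPM + 1), and tests were made on log2(CPM + 1), which understates the change of genes near or below 1 CPM. Of the 32 libraries, 30 held 13.03 to 34.1 M reads (median 21.7 M). Replicate 2 of the combination was shallow in Ishikawa-S33Y (2.99 M) and in SNGM (1.61 M), where 3 reads amount to 1.87 CPM. Replicates were least alike in the SNGM combination, with a root mean square log2 difference of 0.60, and in Ishikawa with paclitaxel (0.55) and with SM08502 (0.45). The range over the other groups ended at 0.35. All 8 epithelial markers checked (such as KRT8 and EPCAM) averaged above 1 CPM in every line. Among 10 immune-cell markers, 3 did so in each line, the highest being CD68 at a mean of 4.69 CPM in Ishikawa-S33Y and 24.7 in HEC265, TYROBP was at 0 in all lines, and the summed immune list stayed between 6.37 and 55.6 CPM. The summed list of 5 endothelial markers stayed between 1.27 and 12.5 CPM. Of 7 fibroblast markers, summed levels were 715 to 1166 CPM in Ishikawa-S33Y, with COL1A1 at a mean of 945 CPM, against 32.5 to 197 CPM in Ishikawa and at most 10.2 CPM in SNGM and HEC265. The part of these markers in the results was not tested.

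All 10 members exceeded 1 CPM in at least 2 libraries, the condition for entering the test with 17011 genes. CXCL2 met it only in SNGM, and CCL20 met it in SNGM and in 1 HEC265 library, so for these genes some difference between SNGM and the other lines was fixed by the filter. CXCL3 passed through the Ishikawa vehicle pair and 1 paclitaxel library of Ishikawa-S33Y. Part of any fall of CXCL3 from the Ishikawa vehicle pair, or of its excess there over other lines, was likewise fixed by the filter. The 3 CXCL genes are related copies on chromosome 4, and reads could be split between them, which was not tested. TNFAIP3 overlaps the RNA gene WAKMAR2, and ICAM1 overlaps LIMASI and ICAM4-AS1. The strand of counting is not given in the sources used here, so reads of such partners cannot be told apart.

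Upstream sequences are shown for 6 members with a match to the NF-kappaB consensus, since they let the shared and the differing parts of the set be seen. TNFAIP3 and NFKB2 also have a match and are not printed. RefSeq (GRCh38.p14) promoter entries were matched for 9 of the 10 members, and 6 are printed, read 5′ to 3′ on the gene's strand, and end 1 base before the transcript start except for BIRC3, whose stretch covers bases 220 to 121 before it. Capitals mark matches to the NF-kappaB consensus decamer on either strand. The windows are chr2:227813722-227813841 (+ strand) for CCL20, chr4:73869273-73869392 (+) for CXCL1, chr4:74099196-74099315 (-) for CXCL2, chr4:74038690-74038809 (-) for CXCL3, chr14:35404750-35404869 (-) for NFKBIA and chr11:102317264-102317363 (+) for BIRC3.
CCL20: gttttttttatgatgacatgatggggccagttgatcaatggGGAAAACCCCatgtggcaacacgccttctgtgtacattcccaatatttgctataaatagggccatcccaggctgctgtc
CXCL1: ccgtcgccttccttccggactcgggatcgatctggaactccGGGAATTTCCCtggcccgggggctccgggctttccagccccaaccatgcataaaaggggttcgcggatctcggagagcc
CXCL2: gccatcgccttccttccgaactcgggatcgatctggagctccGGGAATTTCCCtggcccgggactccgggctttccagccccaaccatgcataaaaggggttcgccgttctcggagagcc
CXCL3: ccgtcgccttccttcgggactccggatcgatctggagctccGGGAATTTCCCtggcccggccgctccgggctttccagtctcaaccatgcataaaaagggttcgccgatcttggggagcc
NFKBIA: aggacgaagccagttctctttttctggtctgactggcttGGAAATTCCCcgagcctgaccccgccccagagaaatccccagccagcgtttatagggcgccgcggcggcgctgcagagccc
BIRC3: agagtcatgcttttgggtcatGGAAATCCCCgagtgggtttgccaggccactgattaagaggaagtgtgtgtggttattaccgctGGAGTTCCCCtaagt

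In CCL20, CXCL1, CXCL2, CXCL3 and NFKBIA the match began 78 to 81 bases before the start. The CXCL1, CXCL2 and CXCL3 stretches shared 88.4% to 93.4% of aligned bases and carried the same match, which is read on both strands with a shift of 1 base. TNFAIP3 had 2 matches, at 67 and 55 bases before its start. The consensus decamer occurred in 9.96% of 35116 RefSeq promoter windows of 250 bases. ICAM1 had no match to it there and carried instead the shorter GGAATTTCC, searched on both strands and contained in the CXCL and NFKBIA matches, which 0.413% of the windows hold. NFKB2 has 3 annotated starts, of which the first had no match. These are letter matches, and no binding was measured.

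With vehicle alone, most members were higher in SNGM and HEC265 than in the Ishikawa pair. BIRC3, which encodes the ubiquitin ligase cIAP2 (chr11:102317484-102339403), had the widest span on the log2(CPM + 1) scale, at 455 and 430 CPM in SNGM, 63.7 and 61.3 in HEC265, 4.07 and 5.53 in Ishikawa, and 3.55 and 3.82 in Ishikawa-S33Y. The SNGM level exceeded that of Ishikawa by 6.27 on the log2 scale (SE 0.17, limma adjusted p = 4.31e-18), and the neighbours Ishikawa and Ishikawa-S33Y were not called different. NFKBIA, which encodes the inhibitor IkB-alpha (chr14:35401513-35404749), was 168 ± 17.8 CPM in SNGM (SD, n = 2), 110 ± 4.47 in HEC265, 62.1 ± 0.381 in Ishikawa and 35.5 ± 0.0132 in Ishikawa-S33Y, and every neighbouring pair in that order was called different. TNFAIP3, whose product A20 edits ubiquitin chains to stop the signal (chr6:137866349-137883312), was alike in HEC265 (50.0 and 50.4 CPM) and SNGM (47.8 and 50.8), and lower in Ishikawa-S33Y (8.38 and 10.2) and Ishikawa (7.40 and 7.29). Within each of these pairs of lines no difference was called.

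The subunit genes showed a narrower span. RELB, the non-canonical partner of p52 (chr19:45001464-45038192), was 19.3 CPM in SNGM, 12.1 in HEC265, 5.98 in Ishikawa and 4.33 in Ishikawa-S33Y on average, and all neighbours in that order were called different. NFKB2, the gene of p100 and p52 (chr10:102394110-102402529), averaged 44.3 CPM in SNGM and 36.2 in HEC265, which were not called different, 20.8 in Ishikawa-S33Y and 13.4 in Ishikawa. The differences of RELB and NFKB2 between Ishikawa-S33Y and Ishikawa were not kept under 6 and 5 of 14 alternative settings. ICAM1, the adhesion molecule bound by leukocyte integrins (chr19:10271120-10286615), was the member called higher in HEC265 (42.4 and 41.9 CPM) than in SNGM (18.7 and 17.4). Ishikawa-S33Y (8.08 and 8.13) and Ishikawa (5.73 and 6.53) followed, and this last pair of lines was not called different.

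The chemokines were a largely SNGM signal. CCL20, which attracts lymphocytes and dendritic cells carrying CCR6 (chr2:227813842-227817556), had 2.49 and 2.58 CPM in SNGM, 0.534 and 0.579 in HEC265, 0.0617 and 0.230 in Ishikawa, and 0.0493 and 0.0419 in Ishikawa-S33Y. The Ishikawa pair rests on 1 to 3 reads a library, and these 2 lines were not called different. CXCL2, a neutrophil attractant that signals through CXCR2 (chr4:74097040-74099195), had 11.1 and 11.6 CPM in SNGM and at most 0.134 CPM in any vehicle library of the other lines. CXCL1, of the same receptor (chr4:73869393-73871308), had 7.92 and 8.53 CPM in SNGM, 1.68 and 1.84 in Ishikawa-S33Y and 0.370 and 0.307 in Ishikawa. It had 0 reads in all 8 HEC265 libraries, so with 3 reads per library as the floor SNGM was at least 61.6-fold higher and Ishikawa-S33Y at least 13.2-fold higher than HEC265 on vehicle. CXCL3 (chr4:74036589-74038689) ran the other way, with 1.11 and 1.38 CPM in Ishikawa, a pair through which it passed the filter. Levels were 0.887 and 0.587 CPM in Ishikawa-S33Y, the SNGM pair had 0.511 and 0.264, and HEC265 had 0 reads, at least 9.33-fold below Ishikawa. Neither Ishikawa and Ishikawa-S33Y nor Ishikawa-S33Y and SNGM were called different for CXCL3.

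**Figure D1:**
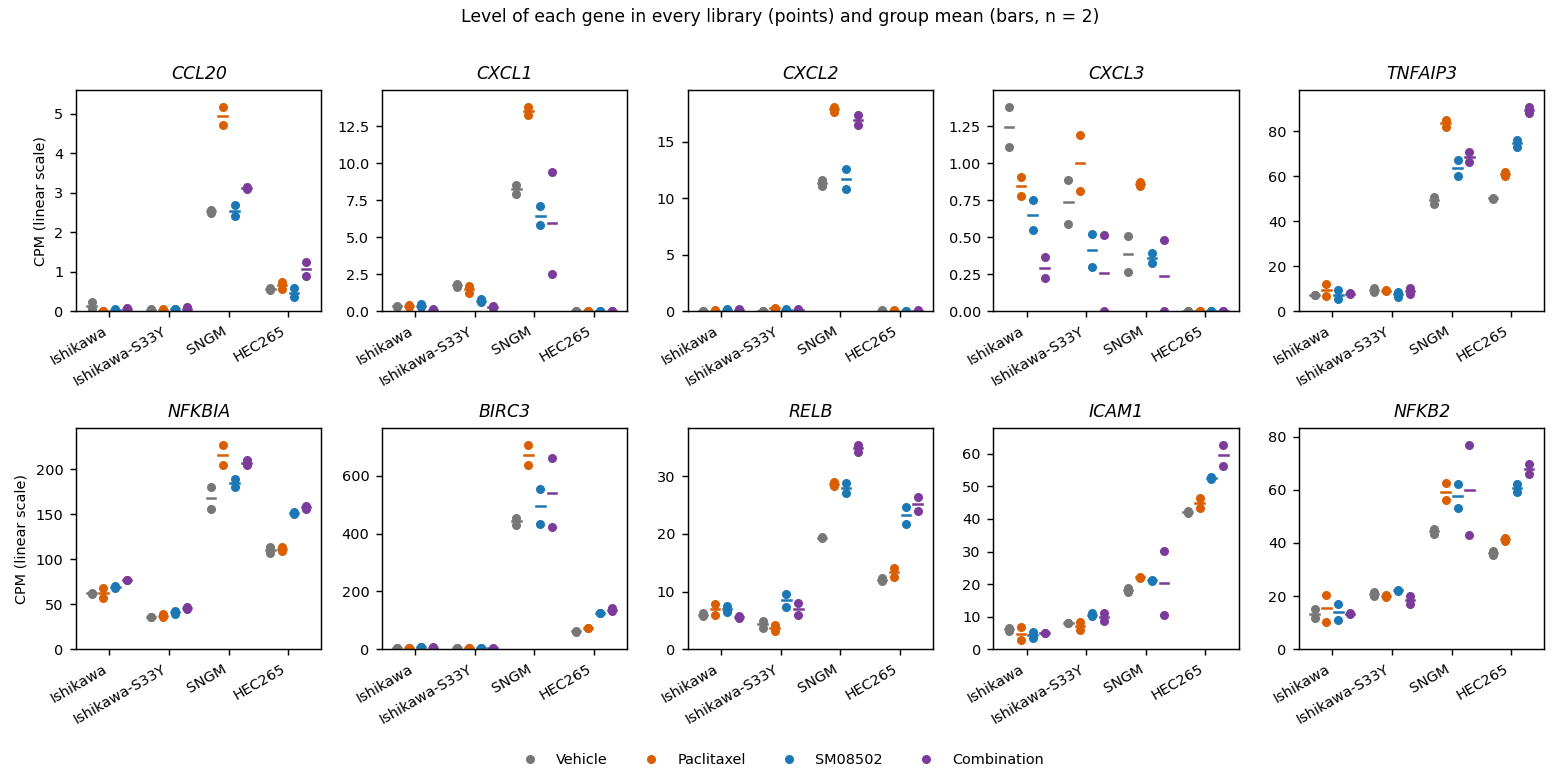
Level of each member in CPM (linear axes that differ between genes) in every library, by line and treatment. Points are single libraries and bars are means of 2. CCL20 and CXCL2 are seen mainly in SNGM, CXCL1 and CXCL3 have no reads in HEC265, and BIRC3 is highest in SNGM, at 421 to 708 CPM.

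Counted over the set, SNGM differed from Ishikawa in all 10 members tested and from Ishikawa-S33Y in 9, HEC265 from Ishikawa in 8, from Ishikawa-S33Y in 9 and from SNGM in 8, and Ishikawa-S33Y from Ishikawa in 4. Of all 17011 genes, 66.8%, 60.8%, 63.3%, 58.0%, 54.9% and 48.3% were called in these comparisons, in the same order. The counts include CCL20, CXCL2 and CXCL3, for which the filter fixed part of the difference, so they are given as a description. Re-centring or quantile normalization moved the median of all genes in the comparisons of SNGM or HEC265 with the Ishikawa pair by 0.11 to 0.27, and reversed no called member. In HEC265 against Ishikawa 39.4% of the called genes were higher as reported and 52.7% after re-centring, and in HEC265 against Ishikawa-S33Y 45.9% and 56.9%.

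The paclitaxel libraries of SNGM are described first, as the values that chose the set. CCL20 had 5.19 and 4.73 CPM with paclitaxel (159 and 141 reads) against 2.49 and 2.58 with vehicle (78 and 88 reads), a ratio of 1.96. CXCL1 had 13.2 and 13.8 CPM against 7.92 and 8.53, and CXCL2 18.1 and 17.6 against 11.1 and 11.6. CXCL3 stayed below 1 CPM throughout, at 0.848 and 0.872 against 0.511 and 0.264. For each of the 4 chemokines both paclitaxel libraries lay above both vehicle libraries.

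The feedback and survival genes of SNGM showed the same order. TNFAIP3 had 82.2 and 85.2 CPM with paclitaxel against 47.8 and 50.8, BIRC3 708 and 636 against 455 and 430, and NFKBIA 227 and 205 against 181 and 156. RELB had 29.0 and 28.3 CPM against 19.2 and 19.4, NFKB2 56.3 and 62.4 against 43.4 and 45.3, and ICAM1 22.0 and 22.3 against 18.7 and 17.4. The ratios of means ran from 1.23 for ICAM1 to 2.22 for CXCL3, and the log2 differences had a median of 0.57 over the 10 members and 0.01 over all genes. Both paclitaxel libraries exceeded both vehicle libraries in 10 of 10 members, where 14.6% of all genes had that order and 12.9% the opposite one. By limma 1 of the 10 (CCL20) passed, where 0.0176% of all genes did (3 of 17011). Nothing is read from that count, since this contrast chose CCL20, and it was lost under 9 of 13 alternatives, among them each omission of 1 of the 4 libraries. Of the 87 other NF-kappaB pathway genes tested, 43 had both paclitaxel libraries above and 6 had both below.

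**Figure D2:**
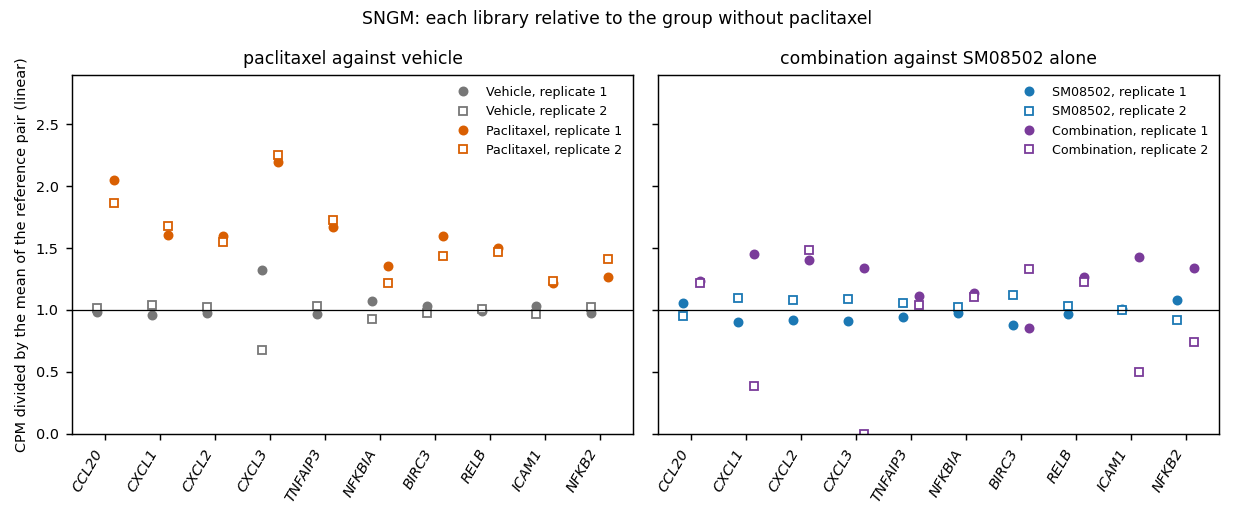
SNGM libraries divided by the mean of their reference pair (linear axis, 1 marks the reference mean): paclitaxel against vehicle on the left and the combination against SM08502 alone on the right. On the left all 10 members have both paclitaxel points above both vehicle points, and on the right the 2 combination libraries part for CXCL1, CXCL3, BIRC3, ICAM1 and NFKB2.

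Whether paclitaxel also raised these genes in libraries that had not chosen them was asked by adding it to SM08502. In SNGM, CCL20 had 3.15 and 3.11 CPM with both drugs (85 and 5 reads) against 2.69 and 2.42 with SM08502 alone. The groups did not overlap, and the difference of 0.22 on the log2 scale (95% interval -0.04 to 0.47) was not called (limma adjusted p = 0.40). CXCL2 gave the largest value among the members, with 16.5 and 17.4 CPM against 10.8 and 12.6, a difference of 0.50 (95% interval 0.23 to 0.77) that missed the threshold after adjustment (limma adjusted p = 0.095, 0.012 to 0.55 when any 1 of the 4 libraries was left out). RELB had 35.5 and 34.2 CPM against 27.2 and 28.8 (difference 0.31, limma adjusted p = 0.35), and NFKBIA 210 and 204 against 180 and 189 (difference 0.16, limma adjusted p = 0.40). TNFAIP3 had 70.9 and 66.6 CPM against 60.4 and 67.4, which overlapped.

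None of the 10 members was called by limma in this SNGM comparison, against 0.253% of all genes. At an unadjusted p under 0.05 CXCL2 alone passed, and limma voom on the recovered reads also called none. CCL20, CXCL2, NFKBIA and RELB had both combination libraries above both SM08502 libraries and no member had both below, where 20.5% of all genes were above and 9.58% below. For CXCL1, CXCL3, BIRC3, ICAM1 and NFKB2 the 2 combination libraries disagreed, replicate 2 being the shallow one. CXCL1 had 9.38 and 2.49 CPM (253 and 4 reads), ICAM1 30.3 and 10.6, NFKB2 77.0 and 42.9, and BIRC3 421 and 660. With replicate 1 left out, so that the shallow library stood alone, CXCL2 passed as higher and CXCL1 and ICAM1 as lower, and with replicate 2 left out no member passed.

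In the other lines paclitaxel left the members with no call. The counts called by limma were 0 of 10 in Ishikawa, Ishikawa-S33Y and HEC265, where 0.0118%, 0% and 0.00588% of all genes were called, and voom also called none. At an unadjusted p under 0.05 the counts were 0, 1 (CXCL2) and 0. In HEC265 TNFAIP3 had 60.3 and 61.9 CPM against 50.0 and 50.4, BIRC3 74.6 and 74.8 against 63.7 and 61.3, and NFKB2 40.8 and 41.9 against 35.4 and 37.1. With RELB and ICAM1 these made 5 members whose paclitaxel libraries both lay above vehicle, next to 28.8% of all genes in that line. In Ishikawa no member had both above and 2 (CCL20 and CXCL3) had both below, next to 13.3% and 12.9% of all genes. In Ishikawa-S33Y CXCL2 and BIRC3 had both above, next to 24.3%. The Ishikawa paclitaxel libraries were far apart for several members, such as NFKB2 at 20.5 and 10.4 CPM and ICAM1 at 6.75 and 2.93.

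A test of whether the paclitaxel difference varied between the 4 lines called no member and no gene of the table (0% of 17011, F test in limma). At an unadjusted p under 0.05 it passed CCL20, CXCL2, NFKBIA and RELB, each in a test that includes the SNGM paclitaxel and vehicle libraries that chose CCL20, and voom called none. That these members were higher in SNGM and not elsewhere is therefore not shown by a difference between lines. Adding paclitaxel to SM08502 gave no called member in Ishikawa (0% of genes called), Ishikawa-S33Y (0.129%, with 0.0588% higher) or HEC265 (0.00588%), and voom called none. In HEC265 CCL20 had 1.24 and 0.908 CPM with both drugs (29 and 19 reads) against 0.580 and 0.360 with SM08502 (13 and 10 reads), without overlap, and it was the 1 member at an unadjusted p under 0.05 there. In Ishikawa and Ishikawa-S33Y no member reached that level. In HEC265 6 members (CCL20, TNFAIP3, NFKBIA, BIRC3, ICAM1 and NFKB2) had both combination libraries above both SM08502 libraries, and 0 had both below. Of all genes there, 22.7% were above and 16.9% below. In Ishikawa 2 members were above and 4 (CXCL1, CXCL3, BIRC3 and RELB) below, next to 14.8% and 7.71% of all genes. In Ishikawa-S33Y, with its shallow library, 1 was above and 3 were below, next to 19.2% and 25.2%.

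With SM08502 alone RELB rose in 3 of the 4 lines, BIRC3 in 2 (Ishikawa and HEC265), and NFKBIA and NFKB2 in HEC265. TNFAIP3, ICAM1 and the chemokines were called in no line in the reported fit. TNFAIP3 had 72.9 and 76.3 CPM with SM08502 in HEC265 against 50.0 and 50.4 with vehicle, without overlap. It was called higher there by limma voom (0.57, adjusted p = 0.00238), as it was in SNGM (0.37, adjusted p = 0.0476). The share of members called was above that of the table in HEC265 and close to it or below it in the other lines and in the mean. RELB had 9.62 and 7.41 CPM in Ishikawa-S33Y against 4.93 and 3.73 with vehicle, a rise of 0.84 (SE 0.16, limma adjusted p = 4.75e-04). In HEC265 it had 21.8 and 24.6 CPM against 12.4 and 11.8, a rise of 0.89 (limma adjusted p = 5.84e-04). In SNGM it had 27.2 and 28.8 CPM against 19.2 and 19.4, a rise of 0.51 that just passed (limma adjusted p = 0.049) and was lost under 8 of 14 alternatives, each of the 4 single-library omissions among them. In Ishikawa the values were 7.57 and 6.45 CPM against 5.73 and 6.22, without overlap and without a call. Averaged over the lines RELB rose by 0.61 (SE 0.08, limma adjusted p = 3.85e-06).

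BIRC3 and NFKBIA followed in fewer lines. BIRC3 had 126 and 127 CPM with SM08502 in HEC265 against 63.7 and 61.3, a rise of 1.01 (SE 0.17, limma adjusted p = 4.29e-04), and 6.94 and 7.84 CPM in Ishikawa against 4.07 and 5.53, a rise of 0.54 (limma adjusted p = 0.038). The Ishikawa call was lost under 5 of 14 alternatives, with adjusted p of 0.30 without vehicle replicate 1 and 0.23 without SM08502 replicate 2. In SNGM the BIRC3 values of 435 and 555 CPM overlapped those of vehicle (455 and 430), and in Ishikawa-S33Y the values of 3.97 and 3.46 spanned 3.55 and 3.82. NFKBIA rose by 0.46 in HEC265 (151 and 152 CPM against 113 and 107, limma adjusted p = 0.00174). NFKB2 rose by 0.73 there (59.2 and 62.3 CPM against 35.4 and 37.1, limma adjusted p = 0.042), a call lost under 7 of 14 alternatives, with adjusted p of 0.14 to 0.20 when any 1 of the 4 libraries was left out. Over the mean of the lines NFKBIA (0.24), BIRC3 (0.43) and NFKB2 (0.31) also passed, the NFKB2 call being lost under 16 of 25 alternatives.

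No chemokine was called with SM08502 in the reported fit. With the drug CCL20 had 2.69 and 2.42 CPM in SNGM, next to 2.49 and 2.58 with vehicle, and 0.580 and 0.360 in HEC265, next to 0.534 and 0.579, and the groups overlapped in both. CXCL1 in Ishikawa-S33Y had 0.817 and 0.642 CPM (14 and 13 reads) against 1.68 and 1.84, a separation that limma did not call in the reported fit but did call as lower with voom (adjusted p = 0.026), without the 2 shallow libraries (1.89e-04), with median re-centring (0.044) and with quantile normalization (0.023). CXCL3 in Ishikawa had 0.752 and 0.547 CPM against 1.11 and 1.38, the vehicle pair through which it entered the test. CXCL3 was not called there in the reported fit. It was called lower with quantile normalization (-0.49, limma adjusted p = 0.00925) and without the 2 shallow libraries (-0.45, limma adjusted p = 0.0151), as it was in the mean of the lines (-0.22 and -0.19, limma adjusted p = 0.00703 and 0.0172). The filter fixed part of the fall from that vehicle pair, which the mean also includes, so these values are a description. All members called in the reported fit were higher. HEC265 had 4 of 10, where 14.7% of all genes were called and 9.27% were called higher. The other lines had 1 each, with 15.2% of genes called (6.50% higher) in Ishikawa, 29.1% (18.5% higher) in Ishikawa-S33Y and 7.86% (3.80% higher) in SNGM. For the mean of the lines it was 4 of 10 against 38.5% of genes called (22.6% higher). In HEC265 the median member was 0.38 higher, against 0.07 over all genes.

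**Figure D3:**
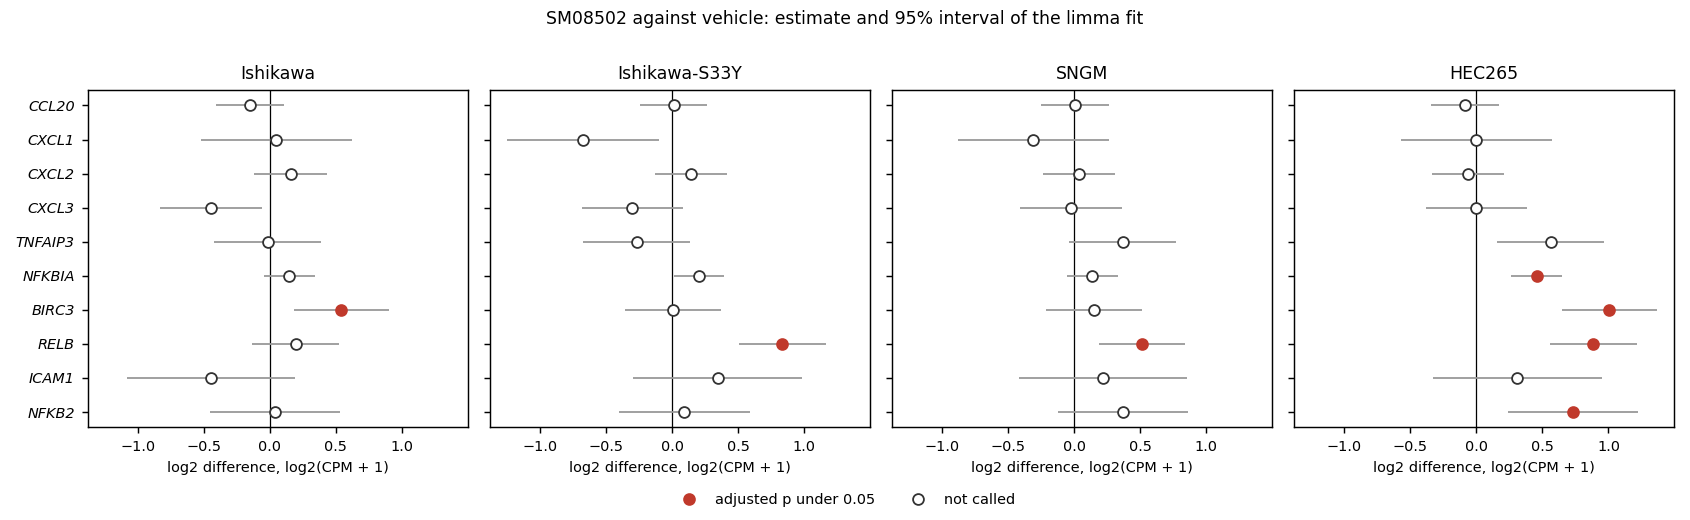
Difference between SM08502 and vehicle on the log2(CPM + 1) scale for each member, by line, with the 95% interval of the limma fit. Filled points passed an adjusted p of 0.05: RELB in Ishikawa-S33Y, SNGM and HEC265, BIRC3 in Ishikawa and HEC265, and NFKBIA and NFKB2 in HEC265, all to the right of 0.

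The difference of SM08502 from vehicle varied between lines for BIRC3 (F test in limma, adjusted p = 0.028), as it did for 12.4% of all genes. The called rises were 1.01 in HEC265 and 0.54 in Ishikawa, and in SNGM and Ishikawa-S33Y the groups overlapped. For RELB the variation was not called (F test in limma, adjusted p = 0.10), nor was it for CXCL1 (adjusted p = 0.46). Without the 2 shallow libraries F moved from 4.11 to 4.84 for RELB and from 1.47 to 8.20 for CXCL1.

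With the combination, the reported fit called the feedback gene NFKBIA higher in every line, RELB in 3, and BIRC3, NFKB2 and TNFAIP3 in HEC265. CXCL1 was called lower in Ishikawa-S33Y, and falls of CXCL3 are given below with their limits. These comparisons use the vehicle libraries already used above, in SNGM the pair that also entered the choice of CCL20. NFKBIA rose in all 4 lines: from 62.3 and 61.8 to 76.7 and 76.9 CPM in Ishikawa (0.30), from 35.5 and 35.6 to 46.9 and 45.1 in Ishikawa-S33Y (0.36), from 181 and 156 to 210 and 204 in SNGM (0.30), and from 113 and 107 to 156 and 160 in HEC265 (0.51). The limma adjusted p was 0.022, 0.0032, 0.027 and 4.03e-04, the groups did not overlap in any line, and the mean over lines was 0.37 (limma adjusted p = 1.23e-06). Leaving out any 1 of the 4 Ishikawa libraries compared moved the Ishikawa adjusted p to between 0.077 and 0.11. In SNGM the p rose to 0.079 without combination replicate 2, 0.054 without combination replicate 1 and 0.30 without vehicle replicate 2.

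RELB rose with the combination in Ishikawa-S33Y (8.02 and 6.02 CPM against 4.93 and 3.73, 0.59), SNGM (35.5 and 34.2 against 19.2 and 19.4, 0.82) and HEC265 (23.9 and 26.5 against 12.4 and 11.8, 1.00), but in Ishikawa had 5.74 and 5.37 CPM against 5.73 and 6.22. The limma adjusted p for the 3 rises was 0.00503, 0.00111 and 1.20e-04. In Ishikawa-S33Y it was 0.097 without vehicle replicate 2 and 0.082 without combination replicate 1. The variation between lines was itself called (F test in limma, adjusted p = 0.00497, background 27.1%). SNGM also had a called rise of CXCL2, to 16.5 and 17.4 CPM from 11.1 and 11.6 (0.54, limma adjusted p = 0.00696, 0.052 without vehicle replicate 1), which was also lost with a pseudocount of 0.1, with voom and with SNGM fitted alone.

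HEC265 had the most calls with the combination, 6 of 10, all higher, against 19.5% of all genes called and 12.4% called higher. BIRC3 reached 133 and 141 CPM from 63.7 and 61.3 (1.12, limma adjusted p = 9.76e-05), TNFAIP3 reached 88.2 and 91.0 from 50.0 and 50.4 (0.82, limma adjusted p = 0.0046), and NFKB2 66.1 and 69.7 from 35.4 and 37.1 (0.89, limma adjusted p = 0.010). CCL20, at 1.24 and 0.908 CPM from 0.534 and 0.579, passed as well (0.41, limma adjusted p = 0.022), on 29 and 19 against 12 and 15 reads. The CCL20 call was lost under 7 of 13 alternatives, including re-centring (0.15), either vehicle library left out (0.13 without replicate 1 and 0.087 without replicate 2) and combination replicate 1 left out (0.23), and the NFKB2 call under 3 of 14 (0.075 and 0.053 without vehicle replicate 1 and 2, 0.082 without combination replicate 2). Re-centring on the sample medians moved the median of all genes in this comparison by -0.11, and the other 5 calls were kept. For BIRC3 the variation between lines was called (F test in limma, adjusted p = 0.00277): the combination gave 6.72 and 5.23 CPM in Ishikawa against 4.07 and 5.53, and 2.67 and 3.34 in Ishikawa-S33Y against 3.55 and 3.82.

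The called falls were all of CXC chemokines. CXCL3 entered the test through the Ishikawa vehicle pair, so part of its fall in Ishikawa was fixed by the filter. The p-values of that fall are given as a description. CXCL3 went from 1.11 and 1.38 CPM (18 and 18 reads) to 0.366 and 0.224 CPM (6 and 3 reads) in Ishikawa, a fall of -0.79 (limma adjusted p = 0.0041, 0.052 without vehicle replicate 2 and 0.054 without combination replicate 2). In Ishikawa-S33Y CXCL1 went from 1.68 and 1.84 CPM (34 and 44 reads) to 0.206 and 0.334 CPM (4 and 1 reads), a fall of -1.12 (limma adjusted p = 0.00256). That call was kept without the shallow library, at a difference of -1.19. The fall of CXCL3 in Ishikawa-S33Y (-0.49, limma adjusted p = 0.037) rested on 0 reads in the shallow library, and without it the difference was -0.19 (adjusted p = 0.48). It was also lost without vehicle replicate 1 (0.24). Over the mean of the lines 7 members passed, CXCL1 (-0.51) and CXCL3 (-0.37) as lower and CXCL2 (0.19), TNFAIP3 (0.33), NFKBIA, BIRC3 (0.35) and RELB (0.58) as higher, where 49.1% of all genes were called, 29.0% higher and 20.1% lower. The CXCL2 value was lost under 8 of 24 alternatives. In SNGM 3 of 10 were called against 18.4% of all genes, in Ishikawa-S33Y 4 against 42.0%, and in Ishikawa 2 against 22.8%. In Ishikawa and Ishikawa-S33Y the members' share was therefore no larger than that of the table. The Ishikawa count and the count in the mean include CXCL3, for which the filter fixed part of the fall. TNFAIP3 in SNGM was not called in the reported fit. It was called higher with limma voom (0.51, adjusted p = 0.0182) and with median re-centring (0.47, limma adjusted p = 0.0473). Limma voom also called NFKB2 higher in SNGM (0.64, adjusted p = 0.0251), where the difference was 0.78 without the shallow libraries. With voom ICAM1 was called higher in HEC265 (0.49, adjusted p = 0.0218) and CXCL1 lower in Ishikawa (-2.37, adjusted p = 0.0393). In the mean of the lines NFKB2 was called higher with voom (0.37, adjusted p = 0.00771) and with re-centring (0.26, limma adjusted p = 0.0254).

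**Figure D4:**
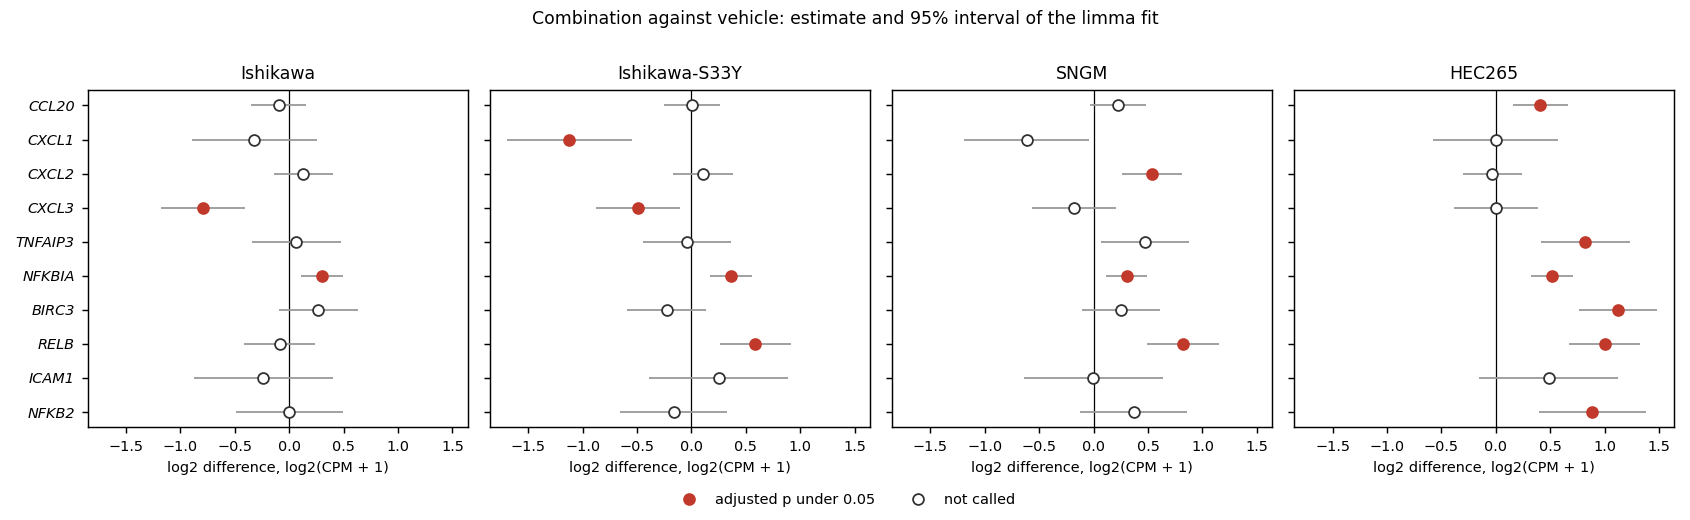
Difference between the combination and vehicle on the log2(CPM + 1) scale for each member, by line, with the 95% interval of the limma fit. NFKBIA passed (filled points) in all 4 lines, CXCL1 or CXCL3 lies to the left of 0 in Ishikawa and Ishikawa-S33Y, and HEC265 has 6 filled points, all to the right.

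Departure from additivity in SNGM is given as levels. CCL20 averaged 2.53 CPM in the vehicle pair, 4.96 under paclitaxel, 2.55 under SM08502 and 3.13 under both, so both combination libraries lay between the vehicle and the paclitaxel pair. TNFAIP3 averaged 49.3, 83.7, 63.9 and 68.7 CPM in the same order, and CXCL2 11.4, 17.9, 11.7 and 17.0. A departure from additivity on the log2 scale was called by limma for 0 of 10 members in SNGM (0.00588% of genes), with 4 at an unadjusted p under 0.05 (CCL20, CXCL1, CXCL3 and TNFAIP3) and 0 by voom. That estimate contains the paclitaxel libraries that chose the set. With combination replicate 1 left out it was called for CXCL1, CXCL3 and ICAM1, on the shallow library alone.

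Genes whose pattern was most like that of CCL20 were ranked by Pearson correlation over the 32 libraries after removal of each line's mean, among 14409 genes. The libraries share lines, groups and depth, and the SNGM paclitaxel pair carries much of the CCL20 variation, so the coefficients are a description. The first was IRAK2 (r = 0.73), a kinase-like adaptor of interleukin 1 and Toll-like receptors, followed by CXCL8 (0.66), the neutrophil attractant interleukin 8, CD163L1 (0.60), DAPP1 (0.60) and DUSP4 (0.59), a phosphatase of MAP kinases. Among the members CXCL2 ranked 10 (0.54), TNFAIP3 42 (0.48), NFKBIA 106 (0.40), BIRC3 124 (0.39), CXCL3 273 (0.33), CXCL1 318 (0.32), NFKB2 472 (0.29), ICAM1 734 (0.25) and RELB 951 (0.23). With Spearman's coefficient IRAK2 and DAPP1 led, and SLC52A3, OVOS2 and HBEGF took the other places. Most members ranked lower on that measure. NFKBIA ranked 106 (0.40), CXCL2 175 (0.38), TNFAIP3 279 (0.35), ICAM1 304 (0.35) and BIRC3 697 (0.29). NFKB2 ranked 795 (0.28), RELB 1557 (0.23), CXCL3 2624 (0.18) and CXCL1 3854 (0.14).

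In SNGM, IRAK2 had 56.0 and 52.6 CPM under paclitaxel, next to 37.6 and 31.2 in the vehicle pair, 33.6 and 38.1 under SM08502, and 32.9 and 30.5 under both drugs. The paclitaxel pair stood above the other 6 libraries, and the pair under both drugs overlapped vehicle but lay below the SM08502 pair. CXCL8 in SNGM had 72.1 and 57.2 CPM under paclitaxel, next to 28.7 and 24.2 in the vehicle pair, 22.0 and 27.8 under SM08502, and 37.5 and 48.5 under both. For vehicle, paclitaxel, SM08502 and both drugs in HEC265 it had 126 and 118, 150 and 159, 214 and 224, and 282 and 318 CPM, with no overlap between any 2 of the 4 groups. Its difference from vehicle in HEC265 was called for SM08502 (0.84, limma adjusted p = 0.017) and for the combination (1.29, limma adjusted p = 4.32e-04). The SM08502 call was lost under 7 of 14 alternatives, among them each omission of 1 of the 4 libraries (limma adjusted p up to 0.15).

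**Figure D5:**
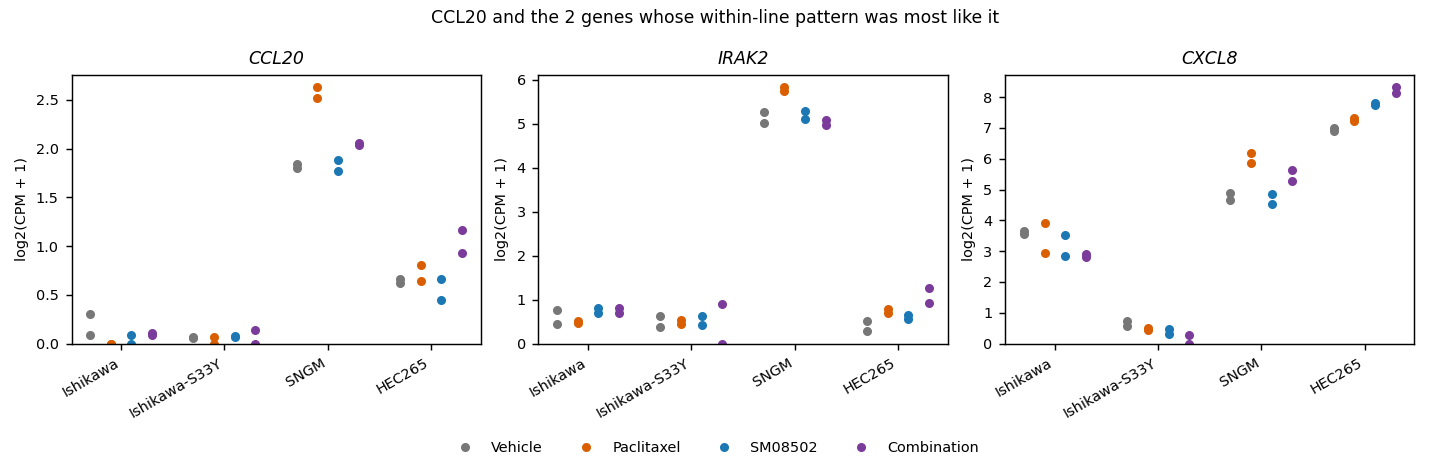
CCL20 and the 2 genes most like it by within-line correlation, IRAK2 and CXCL8, as log2(CPM + 1) in every library (points), by line and treatment. In SNGM the paclitaxel points of all 3 genes are the highest, and in HEC265 CXCL8 is lowest with vehicle and highest with the combination.

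Of 99 further pathway genes, 87 were tested: 3 subunits, 5 inhibitors, 7 kinases, 23 adaptors and ubiquitin enzymes, 13 receptors, 9 ligands, 24 other targets and 3 partners of the members' products. In HEC265, SM08502 gave 16 rises and 2 falls among them (9.27% and 5.39% of all genes) and the combination 20 and 3 (12.4% and 7.16%). The direction of the background there depends on the scaling: of all genes called in HEC265, 63.2% for SM08502 and 63.3% for the combination were higher as reported, against 39.3% and 41.1% after re-centring on the sample medians and 47.5% and 47.9% after quantile normalization. For SM08502 the share higher also moved from 42.8% to 53.3% in Ishikawa with re-centring and from 63.6% to 52.5% in Ishikawa-S33Y with quantile normalization. In Ishikawa-S33Y the counts were 18 rises and 3 falls for SM08502 (18.5% and 10.6%) and 23 and 10 for the combination (24.0% and 18.0%). SNGM had 4 rises and 6 falls for SM08502 (3.80% and 4.06%) and 10 and 9 for the combination (10.8% and 7.54%). Ishikawa had 4 of each for SM08502 (6.50% and 8.68%) and 6 rises and 8 falls for the combination (11.6% and 11.2%). In the mean over lines for SM08502, 21 of 87 rose and 13 fell, where 22.6% of all genes rose and 15.8% fell. By role, 2 of 3 subunits, 3 of 5 inhibitors and 5 of 23 adaptors rose, 4 of 23 adaptors fell, and 5 of 24 other targets rose while 7 fell. In that mean the share of pathway genes called was close to that of the table.

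The pathway genes with the largest called rises in the mean over lines for SM08502 were NFKBIB (0.64), which encodes the inhibitor IkB-beta, MAP3K7 (0.53), the kinase TAK1 that activates the IkB kinases, and CYLD (0.49), a deubiquitinase that dampens the signal. The largest falls were of IKBKE (-0.51), an IkB-kinase-related kinase, PLAU (-0.49), the protease urokinase, and SHARPIN (-0.38), a subunit of the linear ubiquitin ligase. MAP3K7 had 51.7 and 53.7 CPM with vehicle and 78.8 and 86.4 with SM08502 in Ishikawa, and NFKBIB had 12.1 and 13.0 CPM with vehicle and 23.3 and 19.5 with SM08502 in SNGM. In neither case did the groups overlap. All 6 of these calls were kept in every alternative tried. In HEC265 the largest rises were of IER3 (0.92), an early response gene, CXCL8 and TRAF1 (0.79), an adaptor, and with the combination the same 3 genes led (1.23 for IER3, 1.29 for CXCL8 and 0.93 for TRAF1). The TRAF1 call was lost under 7 of 13 alternatives for SM08502 (limma adjusted p up to 0.293) and 4 of 13 for the combination (up to 0.126). IER3 had 56.8 and 57.4 CPM with vehicle there, 106 and 111 with SM08502, and 134 and 137 with both.

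In SNGM the largest called rises with the combination were NFKBIB (0.94), CYLD (0.72) and CXCL8 (0.67), and the largest falls IKBKG (-1.39), TNFSF10 (-1.11), the gene of the death ligand TRAIL, and IL1R1 (-1.02), an interleukin 1 receptor. The IKBKG value came from the shallow library, which held 0 reads of it, while replicate 1 had 6.42 CPM against 6.35 and 5.89 with vehicle. Without that library the IKBKG difference was 0.06. The CXCL8 call was lost under 10 of 14 alternatives (0.49, adjusted p = 0.32 without the shallow library) and the IL1R1 call under 5 (-0.38, adjusted p = 0.19 without it). In Ishikawa-S33Y the largest rise with either treatment was of TRAF6 (0.98 with SM08502 and 1.03 with the combination), the ubiquitin ligase of interleukin 1 signalling, and the largest falls were of PLAU (-1.06 and -1.50) and SHARPIN (-0.96 and -1.37). All 6 of these were kept under all alternatives tried. In Ishikawa MAP3K7 rose (0.64 and 0.71), and TRAF3, an adaptor that restrains the non-canonical branch, fell (-0.71 and -0.95). The TRAF3 fall with SM08502 was lost under 4 of 14 alternatives.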

How the data were processed

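RNA was sequenced after ribosomal RNA depletion, per the labels' protocols. The deposited values are log10(CPM + 1) per gene, as read from the values: back-computed CPM sum to the same total in all 32 libraries, and 100% of values up to 1000 reads came out as whole reads (tolerance 0.05). The submitters' processing notes name bcl2fastq, kallisto, STAR and GRCh38 without roles. Genes above 1 CPM in at least 2 libraries (17011) were tested as log2(CPM + 1) with limma 3.58.1 in R 4.3.3. The fit had 1 mean per group over all 32 libraries, an intensity trend, 16 residual and 4.90 prior degrees of freedom, and two-sided tests with Benjamini-Hochberg adjustment over all tested genes, called under 0.05. Intervals are 95%. F tests compared each treatment difference between lines. Samples were grouped by the line, treatment and replicate in their titles. The closest replicates still differed by more than counting error (chi-square per degree of freedom 2.38). All members were named, with up to 3 pathway genes each way per comparison and the 5 genes most like CCL20. Members and lists were chosen with earlier results of these data known. The procedure was tried on simulated data with independent replicates and with changes only in better expressed genes. That trial does not cover genes near or below 1 CPM, nor deviations shared between libraries. Alternatives were filters, pseudocount, scaling, trend, fitted lines, a replicate block, limma voom, the shallow libraries and single libraries left out.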

Additional observations from a re-analysis of the deposited data

Results flagged for a closer look

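The difference of the combination from vehicle was not the same in the 4 lines for BIRC3 (F test in limma, adjusted p = 0.00277) and for RELB (adjusted p = 0.00497), and that of SM08502 from vehicle was not the same for BIRC3 (adjusted p = 0.0280). BIRC3 rose by 1.12 with the combination and 1.01 with SM08502 in HEC265, whereas with the combination it had 2.67 and 3.34 CPM in Ishikawa-S33Y against 3.55 and 3.82 with vehicle. RELB rose with the combination in Ishikawa-S33Y (0.59), SNGM (0.82) and HEC265 (1.00), and had 5.74 and 5.37 CPM in Ishikawa against 5.73 and 6.22. The BIRC3 result for SM08502 was lost under 12 of 41 alternatives, with adjusted p up to 0.14 (voom). These included each omission of 1 HEC265 vehicle or SM08502 library, of either Ishikawa-S33Y vehicle library, of Ishikawa-S33Y SM08502 replicate 2 and of SNGM vehicle replicate 1. Both results for the combination were kept. Other members passed for the combination only under alternatives (F test in limma). NFKB2 did so with re-centring (adjusted p = 0.038) and voom (0.048), and TNFAIP3 with re-centring (0.048). CXCL3, for which the filter fixed part of the difference, passed with quantile normalization (0.0083). For CXCL1 F moved from 2.98 to 18.9 without the 2 shallow libraries, which leaves a single combination library in Ishikawa-S33Y and in SNGM. Doses differed between lines, so line and dose cannot be told apart.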

How the results depend on the processing

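Of 85 member results called, 64 were kept under all alternatives, 21 were lost under at least 1 and 0 reversed. Most of the 85 were differences between lines on vehicle, and most of those were kept. Among calls for a treatment against vehicle within 1 line, more were lost under at least 1 alternative than were kept under all. Counts of the 10 members called changed as follows, and the cause was not tested. For paclitaxel in SNGM (1 as reported) the count was 0 with the stricter filter, a pseudocount of 0.1, median re-centring, quantile normalization, the line fitted alone and the replicate block, 3 with voom, 2 without the 2 shallow libraries and 0 with any 1 library left out. For SM08502 in Ishikawa (1) it was 0 without a filter, with the line alone and with voom, 2 with quantile normalization and without the shallow libraries, and 0 to 1 with 1 library left out. In Ishikawa-S33Y (1) it was 2 with re-centring, the line alone, voom and without the shallow libraries, and 3 with quantile normalization. In SNGM (1) it was 0 without a filter, with a pseudocount of 0.1, the line alone and the replicate block, 2 with voom and 0 with 1 library left out. For the combination in Ishikawa (2) it was 1 with the stricter filter and the line alone and 0 to 1 with 1 library left out, in Ishikawa-S33Y (4) it was 2 with the stricter filter and the line alone, in SNGM (3) 2 to 5 with 1 library left out, and in the mean over lines (7) 4 with the stricter filter, under which fewer members were tested. With 1 library left out, combination against SM08502 (0) gave 0 to 3 in SNGM and 0 to 1 in the mean, and non-additivity (0) gave 0 to 3 in SNGM and 0 to 1 in the mean, the highest each time without SNGM combination replicate 1. On vehicle, Ishikawa-S33Y against Ishikawa (4) gave 2 without a filter and with the lines alone and 2 to 3 with 1 library left out, and the stricter filter gave 6 for SNGM against Ishikawa (10) and 4 for HEC265 against SNGM (8). The test between lines gave 1 without a filter for paclitaxel (0). For SM08502 (1) it gave 0 without a filter, with a pseudocount of 0.1, re-centring and voom, 3 without the shallow libraries and 0 to 2 with 1 library left out. For the combination (2) it gave 4 with re-centring, 5 without the shallow libraries and 2 to 7 with 1 library left out, and for combination against SM08502 (0) 0 to 1. The difference for IKBKG, combination vs vehicle, SNGM was 0.0592 without the 2 shallow libraries and -2.83 to 0.0592 with 1 library left out.

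Counts of all genes called moved more: SM08502 in Ishikawa (2582) from 48 with the line alone to 4013 without the shallow libraries, SM08502 in SNGM (1337) from 125 with the line alone to 2602 with voom, SM08502 in HEC265 (2494) from 1057 to 7026, combination against SM08502 in SNGM (43) from 0 with re-centring to 5018 without combination replicate 1, and paclitaxel in SNGM (3) from 0 to 22. The replicate numbers did not pair the libraries in a uniform way. The correlation of same-numbered deviations ran from -0.54 to 0.61 in SNGM and from -0.43 to 0.80 in Ishikawa. Of 6 pairs of groups in each line, 3 in Ishikawa and 2 in SNGM correlated above 0.1. The reported fit treats such shared deviations as independent. The replicate block therefore describes a shared number and moved the member counts only as given above. Depth limits CCL20, CXCL1, CXCL2 and CXCL3 outside SNGM, and every member in the 2 shallow libraries.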
